A study of Mus musculus with 14 samples.

Results

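The expression of 8 genes of Cajal-Retzius cells was examined in RNA-seq of the embryonic mouse hippocampus in 2 models of Down syndrome. The genes were Reln, Trp73, Lhx1, Lhx5, Calb2, Ebf3, Ndnf and Nhlh2. They were chosen by name, with earlier results of these data known, and each was the locus of that name with the highest mean among the 59796 loci of the table, of which 20320 kept a gene name. All 8 were found, and all 8 passed the filter of a mean of at least 10 normalized fragments in every comparison.

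Hippocampi were dissected from E16 to E18 embryos. The 189N3 line carries an extra copy of Dyrk1a, a protein kinase gene, in a transgene made from a bacterial artificial chromosome that holds the whole gene under its own regulation, and 3 189N3 libraries were compared with 3 libraries of wild-type littermates. The Dp(16)1Yey/+ line carries an extra copy of the stretch of chromosome 16 from Lipi to Zfp295, which also includes Dyrk1a, and 4 libraries were compared with 4 libraries of wild-type littermates. Whether a library held 1 embryo, and which litters the embryos came from, is not given in the sources used here, so that p-values measure the spread between these libraries. In both lines the extra copy is present in every cell, and none of the 8 genes lies in the triplicated region.

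Cajal-Retzius cells are among the earliest-born neurons of the cortex. They arise largely from the cortical hem, a signalling centre at the medial edge of the cortical wall beside the hippocampal primordium, and they spread below the meninges to fill the marginal zone and, in the hippocampus, the layer along the hippocampal fissure. There they secrete reelin, an extracellular glycoprotein that binds receptors on migrating neurons and radial glia and directs the layering of the cortex and the dentate gyrus. Many of the cells die after birth, and the hippocampus is known for keeping them longer than the neocortex.

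The 8 genes have different roles in these cells. Reln encodes reelin, the secreted product. Trp73 encodes p73, a transcription factor of the p53 family that hem-derived Cajal-Retzius cells need. Lhx1 and Lhx5 encode LIM homeodomain factors, and Ebf3 and Nhlh2 encode helix-loop-helix factors. Calb2 encodes calretinin, a calcium-binding protein, which is also made by some interneurons. Ndnf encodes a secreted neuron-derived neurotrophic factor, which later also marks a class of layer 1 interneurons. A whole hippocampus holds few Cajal-Retzius cells among many others, and in bulk RNA fewer cells of a type and less RNA per cell cannot be told apart.

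Promoter sequences are given to show what the starts of these genes look like, and their part in the levels of the 8 genes was not tested. RefSeq sequence of the build GRCm38.p6 was found for 5 of the 8 genes (Reln, Trp73, Lhx1, Ebf3 and Nhlh2), and 3 windows of 250 bases before the start are shown. They are that of Reln (chr5:22344706-22344955, minus strand), that of the internal start of Trp73 (chr4:154097174-154097423, minus strand), and that of Ebf3 (chr7:137314446-137314695, minus strand). Trp73 has 2 RefSeq starts 42702 bases apart. As background, transcripts of the upstream start encode forms with the transactivation domain and those of the internal start encode forms without it. Capitals mark an E-box (CANNTG) or a p53 family half-site, all else is in lower case, and each sequence runs 5′ to 3′ on the strand of the gene.
Reln: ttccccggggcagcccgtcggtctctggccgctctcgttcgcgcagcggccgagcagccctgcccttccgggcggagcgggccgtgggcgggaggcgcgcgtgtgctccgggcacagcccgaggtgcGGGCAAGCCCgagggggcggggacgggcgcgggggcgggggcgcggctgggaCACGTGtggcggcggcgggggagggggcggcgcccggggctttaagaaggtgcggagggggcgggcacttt
Trp73, internal start: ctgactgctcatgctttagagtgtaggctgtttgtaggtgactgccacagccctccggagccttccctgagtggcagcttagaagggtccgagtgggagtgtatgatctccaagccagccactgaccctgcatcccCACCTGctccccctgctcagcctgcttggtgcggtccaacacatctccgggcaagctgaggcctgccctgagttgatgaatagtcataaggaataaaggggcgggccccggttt
Ebf3: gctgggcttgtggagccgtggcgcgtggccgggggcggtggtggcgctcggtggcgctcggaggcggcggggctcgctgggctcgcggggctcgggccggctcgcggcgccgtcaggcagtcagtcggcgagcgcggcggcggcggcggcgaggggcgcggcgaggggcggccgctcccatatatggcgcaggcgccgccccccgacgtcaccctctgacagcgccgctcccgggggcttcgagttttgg
In the Reln window 1 E-box began at position -71 and 1 p53 family half-site at -123, counted from the start. The internal Trp73 window held 1 E-box, at -114, and overlaps an exon of Trp73os, a gene on the opposite strand. The Ebf3 and Lhx1 windows held none of the motifs searched, the Nhlh2 window held 2 E-boxes, and the window of the upstream Trp73 start held 1 E-box, at -187. Of all 32851 windows of this length, 66.2% held an E-box and 7.13% a p53 family half-site. TAATTA, a homeodomain motif, was found in 4.84% of windows and TCCCNNGGGA, an EBF motif, in 0.779%, and in none of the members' windows. All 4 motifs read the same on both strands, the matches did not overlap, and a match is a description of the letters only. The Reln and Ebf3 windows were each 80% G and C, that of the upstream Trp73 start 77.2% and that of Lhx1 64.8%. The share was 58.4% for the internal Trp73 start and 42.0% for Nhlh2, with a median of 52.4% over all windows.

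Depth was between 20809135 and 29098454 fragments per library, and values are the authors' normalized fragments, that is, fragments divided by a factor of the library. Dyrk1a, the label check, stood between 3938 and 5877 in the 189N3 libraries and between 2126 and 2977 in their littermates. In Dp(16)1Yey replicates 0 to 3 it was 4781, 2124, 3600 and 3044, against 2397 to 3175 in their littermates. Replicate 1 was thus the lowest of all 14 libraries, and replicate 3 lay within the range of its littermates. Over 83 genes of the triplicated region, 3 of the Dp(16)1Yey libraries stood at a median of 0.40, 0.58 and 0.69 on the log2 scale above the littermate mean. Their littermates stood between -0.13 and 0.12. On the same scale 189N3 replicate 2, whose line carries an extra copy of Dyrk1a but not of the whole region, stood at 0.37. The library labelled Dp(16)1Yey replicate 1 stood at only 0.08, so values without it are also given for the fold changes of the 8 genes, for the gene lists and for the correlations among the 8 genes and with the lists. The littermates of the Dp(16)1Yey line fell into nearly alike pairs. The squared difference between libraries, over what counting alone would give, was 1.65 for replicates 0 and 1 and 2.0 for replicates 2 and 3, against 31.6 to 36.5 across the pairs.

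The levels of the 8 genes differed widely. Levels between genes are given per kilobase of exon, from the union of GENCODE exons. Over the 7 wild-type libraries, Reln had the highest level, at 761 ± 198 (SD, n = 7) normalized fragments per kb. Calb2 followed at 343 ± 56.4 (SD, n = 7), and Nhlh2 at 212 ± 61.3 (SD, n = 7). Reln was above Calb2 in 7 of 7 libraries and the ranges did not overlap. Ndnf stood at 111 ± 42.3 (SD, n = 7) per kb and Trp73 at 54.4 ± 12.8 (SD, n = 7). Ebf3 stood at 24.1 ± 5.84 (SD, n = 7), Lhx5 at 18.7 ± 4.98 (SD, n = 7) and Lhx1 at 6.94 ± 3.96 (SD, n = 7). Neighbours in this order overlapped in range between Calb2 and Nhlh2, Nhlh2 and Ndnf, Ndnf and Trp73, and Ebf3 and Lhx5. Within each wild-type library the order was nevertheless the same for every neighbouring pair. In all 14 libraries it turned in a single library for Calb2 over Nhlh2, for Nhlh2 over Ndnf, for Ndnf over Trp73 and for Ebf3 over Lhx5. Lhx1 was near the limit of what the depth resolves, at 8.46 normalized fragments in its lowest library.

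**Figure D1:**
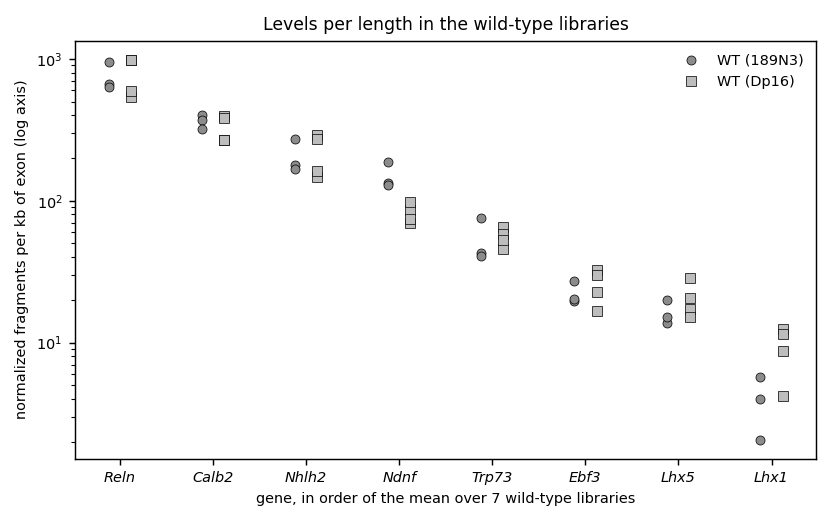
Levels of the 8 genes in the 7 wild-type libraries, in normalized fragments per kb of exon on a log axis, with 1 point per library (circles, littermates of 189N3; squares, littermates of Dp(16)1Yey). Reln stands above the other genes in every library, and the Ndnf points of the Dp(16)1Yey littermates lie below all 3 of the 189N3 littermates.

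Reln, the secreted product (XLOC_041029, chromosome 5, 21884454 to 22344702, minus strand), is considered first. In the 189N3 libraries it was 10665, 20570 and 15752 normalized fragments, and in their littermates 22422, 15817 and 15095. The groups overlapped, with the lowest value in a 189N3 library and the highest in a littermate. In the Dp(16)1Yey libraries it was 14915, 10941, 22446 and 9356, and in their littermates 23378, 23112, 12695 and 13977. Replicate 2 of the Dp(16)1Yey libraries stood with the higher littermate pair, and the other 3 stood near or below the lower pair. The log2 fold change was -0.21 (SE 0.27) in 189N3 and -0.37 (SE 0.29) in Dp(16)1Yey mice, with 95% intervals of -0.78 to 0.36 and -1.01 to 0.27. Exact two-sided permutation tests gave p = 0.50 in 189N3 and p = 0.343 in Dp(16)1Yey mice. The second value was -0.27 when the library labelled Dp(16)1Yey replicate 1 was left out and -0.19 when replicate 3 was. In the isoform table the transcript uc033ihv.1 held between 89.2 and 95.1% of the value of the locus over the 14 libraries. Reln overlaps 3 GENCODE genes of the same strand and 4 of the opposite strand. A share of its reads could belong to the former, and also to the latter, since whether counting used the strand is not stated.

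**Figure D2:**
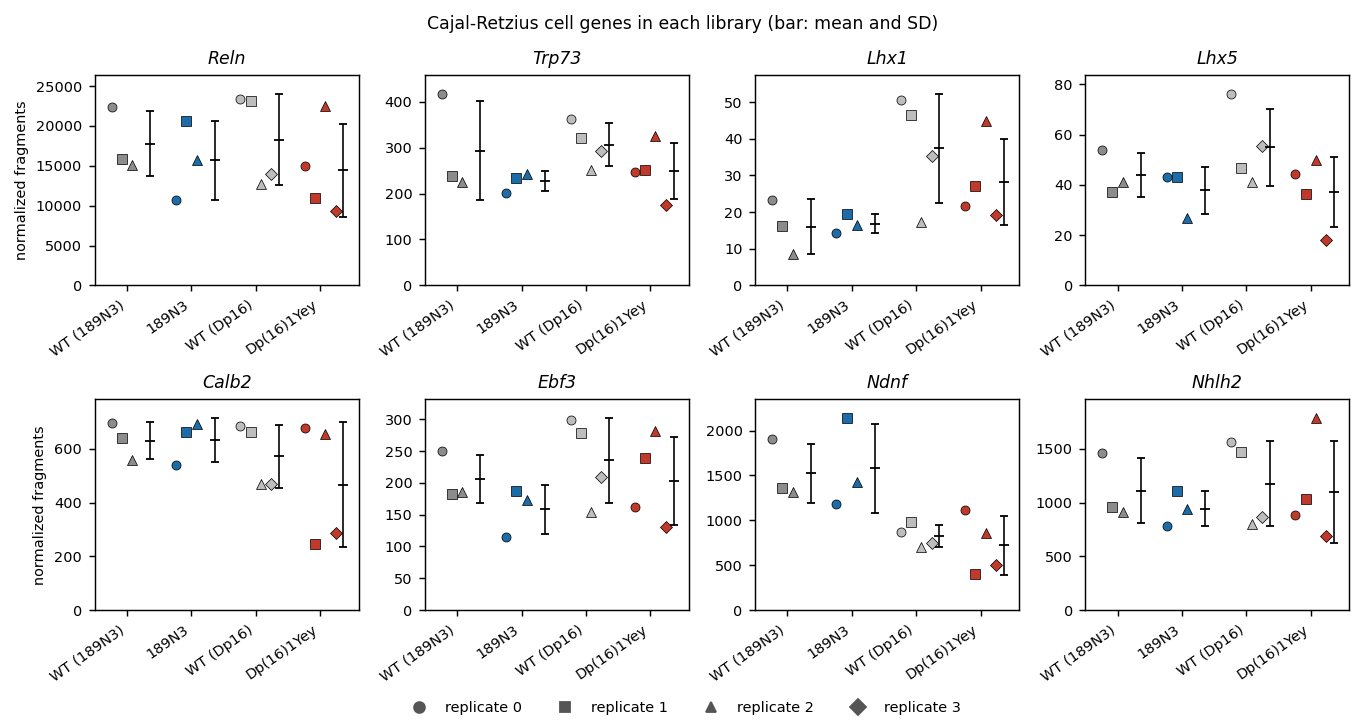
Normalized fragments of each gene in each of the 14 libraries, on linear axes from 0, with the replicate given by the shape of the point and the bar showing the mean and SD of the group (n = 3, 3, 4 and 4). In all 8 panels the transgenic libraries overlap those of their littermates, and in 7 of the 8 panels replicates 0 and 1 of the Dp(16)1Yey littermates lie above replicates 2 and 3.

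The transcription factors were examined next. Trp73 (XLOC_038830, chromosome 4, 154056253 to 154140208, minus strand) was 202, 235 and 243 normalized fragments in the 189N3 libraries and 418, 237 and 225 in their littermates. A single littermate library, replicate 0, set the higher mean of the wild-type group. In the Dp(16)1Yey libraries Trp73 was 247, 250, 325 and 174, against 362, 322, 252 and 292 in the littermates. The log2 fold changes were nearly equal in size, at -0.32 (SE 0.28) in 189N3 and -0.32 (SE 0.21) in Dp(16)1Yey mice, and neither passed the test. Without littermate replicate 0 the 189N3 value was -0.03. The Dp(16)1Yey value stayed at -0.33 when the library labelled replicate 1 was left out. The value of Trp73 was divided over 5 assembled transcripts, and the share of uc008wbg.2 ranged from 8.32 to 76.4% between libraries, so no form of p73 could be followed on its own. Trp73os lies on the opposite strand within Trp73, and their reads cannot be told apart here if strand was not used.

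Ebf3 (XLOC_050444, chromosome 7, 137193673 to 137314445, minus strand) was 115, 188 and 173 normalized fragments in the 189N3 libraries and 250, 182 and 186 in their littermates. The Dp(16)1Yey libraries had 162, 239, 282 and 130, against 299, 278, 154 and 209. The log2 fold change was -0.39 (SE 0.27) in 189N3, the lowest of the 8 genes there, and -0.23 (SE 0.28) in Dp(16)1Yey mice, where it was -0.33 without the library labelled replicate 1. Both groups overlapped their littermates. Ebf3 overlaps 2 genes of the opposite strand.

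Nhlh2 (XLOC_033304, chromosome 3, 102010076 to 102015492, plus strand) was 785, 1106 and 945 normalized fragments in the 189N3 libraries and 1464, 961 and 912 in their littermates. The Dp(16)1Yey libraries held 884, 1038, 1784 and 689, against 1563, 1469, 801 and 871. The highest value of all 14 libraries was thus in a Dp(16)1Yey library and the lowest in another. The log2 fold changes were -0.21 (SE 0.25) and -0.13 (SE 0.31), and the second turned to 0.07 without Dp(16)1Yey replicate 3, to 0.03 without littermate replicate 0 and to 0.00 without littermate replicate 1. With the library labelled Dp(16)1Yey replicate 1 left out it stayed at -0.13.

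The LIM homeodomain genes were low. Lhx1 (XLOC_009597, chromosome 11, 84518284 to 84525535, minus strand) was 14.4, 19.6 and 16.6 normalized fragments in the 189N3 libraries and 23.4, 16.2 and 8.46 in their littermates. For the Dp(16)1Yey libraries the values were 21.8, 27.0, 44.9 and 19.1, against 50.5, 46.5, 17.3 and 35.4. The log2 fold changes were 0.16 (SE 0.40) and -0.37 (SE 0.37), and the first turned to -0.21 without littermate replicate 2. The second stayed at -0.37 without the library labelled Dp(16)1Yey replicate 1. Lhx5 (XLOC_040301, chromosome 5, 120431699 to 120441223, plus strand) was 43.1, 43.2 and 27.0 in the 189N3 libraries and 53.7, 37.0 and 41.1 in their littermates. For Lhx5 the Dp(16)1Yey libraries gave 44.5, 36.4, 50 and 18.1, against 76.2, 46.5, 41.0 and 55.6. With a log2 fold change of -0.60 (SE 0.32, 95% interval -1.31 to 0.11), Lhx5 had the lowest fold change of the 8 genes in Dp(16)1Yey mice (limma, adjusted p = 0.909). It was -0.30 without Dp(16)1Yey replicate 3 and -0.62 without the library labelled replicate 1. Lhx5 overlaps 1 gene of the opposite strand.

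Calb2 and Ndnf encode a calcium-binding and a secreted protein. Calb2 (XLOC_053542, chromosome 8, 110137502 to 110168210, minus strand) was 541, 662 and 694 normalized fragments in the 189N3 libraries and 695, 642 and 557 in their littermates. The log2 fold change was 0.00 (SE 0.23, 95% interval -0.50 to 0.50). Among the Dp(16)1Yey libraries Calb2 was 676, 246, 657 and 287, against 686, 663, 468 and 470. Replicates 0 and 2 were among the high littermates, while the library labelled replicate 1 and replicate 3 lay below every other library of the series. Between these groups the log2 fold change was -0.42 (SE 0.33), with -0.16 when the library labelled replicate 1 was left out and -0.65 when replicate 0 was.

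Ndnf (XLOC_043371, chromosome 6, 65671590 to 65712326, plus strand) was 1182, 2135 and 1426 normalized fragments in the 189N3 libraries and 1905, 1356 and 1312 in their littermates. Across the Dp(16)1Yey libraries it was 1118, 407, 859 and 498, against 871, 985, 707 and 750. The same libraries that were low in Calb2 were the lowest in Ndnf. The log2 fold changes were 0.03 (SE 0.27) and -0.31 (SE 0.29), and the second was -0.07 without the library labelled Dp(16)1Yey replicate 1 and -0.56 without replicate 0.

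The question of the study was how each model differed from its littermates. In 189N3 mice, 5 of the 8 genes were lower and 3 higher, with a median log2 fold change of -0.21, against -0.04 over all 35899 loci tested, of which 56.2% were lower. Leaving out 1 library moved this median to between -0.34, without 189N3 replicate 1, and -0.02, without littermate replicate 0, where without 189N3 replicate 0 it was also -0.02. The number of genes lower then ran from 4 to 8. None of the 8 passed an adjusted p of 0.05 in limma, edgeR or DESeq2, where the share of all loci in limma was 0%. None had an unadjusted p under 0.05 in any of the 3 tools, against 1.87% of all loci in limma. In none did the 3 transgenic libraries stand clear of the 3 littermates, against 4.98% of all loci. Exact two-sided permutation tests cannot go below p = 0.10 with 3 against 3 libraries, and they ranged from 0.30 for Ebf3 to 1.00 for Calb2.

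In Dp(16)1Yey mice all 8 genes had a lower mean than the littermates on the log2 scale, from -0.13 for Nhlh2 to -0.60 for Lhx5. Their median was -0.34, against 0.03 over all 36024 loci tested, of which 45.1% were lower. None passed an adjusted p of 0.05 in limma, edgeR or DESeq2, against 0% of all loci in limma, and none had an unadjusted p under 0.05 in any of these tools, against 3.53% of all loci. In none did the groups stand clear of each other, against 2.45% of all loci. Exact two-sided permutation tests ran from p = 0.143 for Lhx5 to 0.80 for Nhlh2, where 4 against 4 libraries can reach 0.0286. The 8 values are not independent, since the genes shared their high and low libraries. The median was -0.30 with the library labelled replicate 1 left out, -0.18 without Dp(16)1Yey replicate 3 and -0.53 without replicate 2, and without replicate 3 or littermate replicate 0 or 1 Nhlh2 no longer stood lower.

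The effects in both lines were compared directly, in a test of their difference over all 14 libraries. None of the 8 genes passed an adjusted p of 0.05 in limma, edgeR or DESeq2 or an unadjusted p of 0.05, against 0% and 2.66% of the 36045 loci tested with limma. The differences, as the Dp(16)1Yey effect minus the 189N3 effect, ran from -0.53 (SE 0.57) for Lhx1 to 0.16 (SE 0.41) for Ebf3. For Trp73 the difference was -0.01 with a 95% interval of -0.73 to 0.72, and for Reln it was -0.16 with an interval of -1.09 to 0.77. These intervals admit differences of over 1.5-fold in either direction. With the library labelled Dp(16)1Yey replicate 1 left out, these differences were -0.06 for Reln, -0.02 for Trp73, -0.53 for Lhx1, -0.39 for Lhx5, -0.16 for Calb2, 0.06 for Ebf3, -0.10 for Ndnf and 0.09 for Nhlh2, and again none passed.

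**Figure D3:**
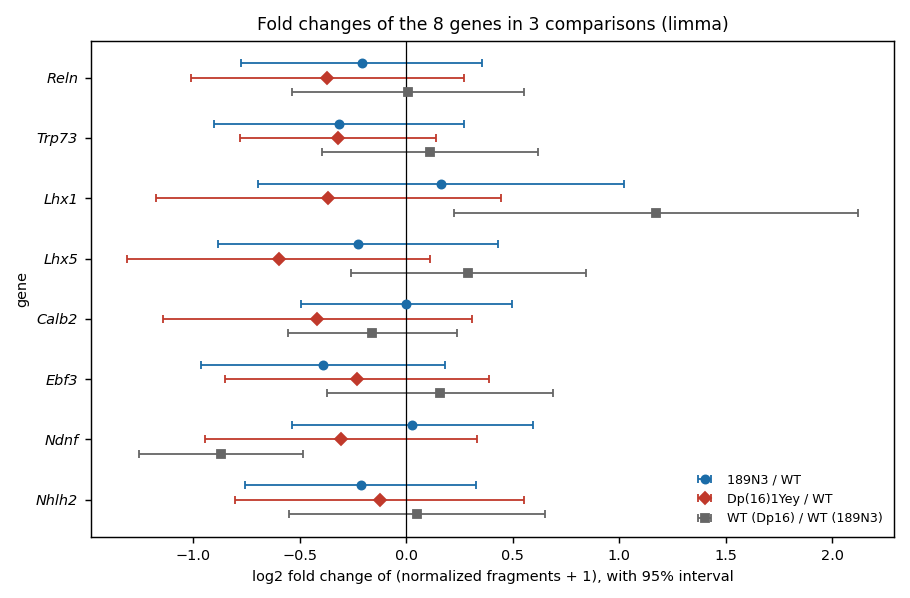
Log2 fold change of each gene with its 95% interval from limma, on the scale of log2 of normalized fragments + 1 (blue, 189N3 over littermates; red, Dp(16)1Yey over littermates; grey, littermates of Dp(16)1Yey over littermates of 189N3). The red points lie left of 0 for all 8 genes with intervals that cross 0, and among the grey points Ndnf lies at -0.87 and Lhx1 at 1.17 with intervals that do not.

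The wild-type hippocampi of both lines differed in Ndnf. It stood at 1524 ± 330.4 (SD, n = 3) normalized fragments in the littermates of 189N3 and 828 ± 125 (SD, n = 4) in those of Dp(16)1Yey, and the 4 libraries all lay below the 3. The log2 fold change was -0.87 (SE 0.17, limma, adjusted p = 0.0386), and the exact two-sided permutation test gave p = 0.0571, the smallest that 4 against 3 libraries allow. Lhx1 was on the other side, at 37.4 ± 14.9 (SD, n = 4) in the littermates of Dp(16)1Yey against 16.0 ± 7.47 (SD, n = 3), with groups that overlapped. Its log2 fold change was 1.17 (SE 0.42, limma, adjusted p = 0.122). Of the 8 genes, 1 passed an adjusted p of 0.05, against 3.75% of all 36047 loci. Unadjusted, 2 were under 0.05, against 26.0% of all loci, and in 1 the groups did not overlap, against 25.5%. The other 6 genes, Reln included, had log2 fold changes between -0.16 and 0.29.

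The Ndnf call was lost in some settings, with its direction kept. With the nearly alike littermates averaged the adjusted p was 0.236 (limma), in a fit of all 4 groups it was 0.169, and leaving out any single library of the 7 gave values from 0.0598 to 0.137. Meningeal genes differed in the same comparison. Of 12 tested, 10 were lower in the Dp(16)1Yey littermates at an unadjusted p under 0.05 and 4 passed the adjusted threshold (Col1a1, Col1a2, Foxc1 and Igf2), with a median log2 fold change of -1.87. Of all 36047 loci, 3799 were lower at an unadjusted p under 0.05 and 526 were lower and passed the adjusted threshold. With the nearly alike littermates averaged, 28 loci passed in place of 1351. The summed level of the 14 meningeal genes ran from 1311 to 2405 in the Dp(16)1Yey littermates and from 3455 to 8904 in those of 189N3, and no gene of the list was at 0 throughout a group. Line, litter, dissection and age within E16 to E18 cannot be told apart in this comparison, and the part of meningeal tissue in the Ndnf value was not tested.

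Libraries of the same group also differed in these genes. In the Dp(16)1Yey littermates, replicates 0 and 1 were both above replicates 2 and 3 for 7 of the 8 genes, all but Lhx5. This held in the same direction for 42.3% of the 35885 loci with a mean of at least 10 there. The ratio of the pair means was 1.84 for Lhx1, 1.81 for Nhlh2, 1.74 for Reln and 1.59 for Ebf3. It was 1.44 for Calb2, 1.27 for Ndnf, 1.27 for Lhx5 and 1.26 for Trp73. A ratio of at least 1.5 was thus seen for 4 of the 8 genes and for 18.1% of all those loci. In the littermates of 189N3, all 8 genes were highest in replicate 0. In the Dp(16)1Yey libraries 6 of the 8 were highest in replicate 2 and 6 were lowest in replicate 3.

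Pairs of the 8 genes were compared over the 14 libraries after centring log2 values on the mean of each group. All 28 pairs had a positive Pearson correlation, with a median of 0.671. These points share depth scaling, dissection and the nearly alike littermates, so the values are descriptions. Ebf3 and Nhlh2 had the highest, at 0.924, followed by Reln and Nhlh2 at 0.919. The lowest were Ebf3 with Ndnf at 0.370, Calb2 with Ebf3 at 0.415 and Lhx1 with Ndnf at 0.430, while Calb2 and Ndnf had 0.887 with each other and 0.793 and 0.780 with Reln. Several of these rest on the library labelled Dp(16)1Yey replicate 1, in which Calb2 and Ndnf were the lowest of all libraries while Ebf3 and Nhlh2 were the second highest of the 4. Over the other 13 libraries Ebf3 with Ndnf had 0.651, Calb2 with Ebf3 0.744 and Lhx1 with Ndnf 0.529, the last then the lowest of the 28 pairs. All 28 were again positive, with a median of 0.755, and Reln with Ebf3 was the highest at 0.959.

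The genes most like Reln in this sense, among 11237 named loci with a mean of at least 100, were Lama1, Iqgap1, Akap13, Itga9, Hydin, P4ha1, Cachd1, Cp, Tgfbr3 and Pdlim5. Pearson correlations ran from 0.978 for Lama1, a laminin chain, to 0.966 for Pdlim5. Among the other members with a mean of at least 100, Nhlh2 came at rank 84, Ebf3 at 283, Trp73 at 351, Calb2 at 389 and Ndnf at 433. These ranks also depend on the library labelled Dp(16)1Yey replicate 1. Without it Ebf3 came at rank 25, Nhlh2 at 43, Trp73 at 383, Calb2 at 403 and Ndnf at 497, and the 10 genes named first lay between ranks 2 and 19. For the mean of the 8 genes, each scaled to its SD, the closest were Iqgap1, Pcsk6, Hydin, Tgfbr3, Mcur1, Gab1, Itga9, Slc12a7, Plekha7 and Pard3b, from 0.979 to 0.953. Iqgap1, Hydin, Itga9 and Tgfbr3 were on both lists.

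Lists of related genes were set beside the 8 genes across libraries. The mean of 15 other genes of Cajal-Retzius cells or their precursors had a Pearson correlation of 0.447 with the mean of the 8 genes, and 0.391 without the 2 libraries farthest from its median. Genes of the cortical hem, the source of many of these cells, had a higher value. The mean of 12 hem genes had a Pearson correlation of 0.903 and a Spearman correlation of 0.855 with the mean of the 8 genes over the 14 centred libraries, and 0.843 (Pearson) without the 2 libraries farthest from the hem median. In the Dp(16)1Yey littermates, Wnt3a, a secreted Wnt ligand of the hem, had a ratio of 3.57 between the pair of replicates 0 and 1 and the pair of replicates 2 and 3. The ratio was 3.83 for Wnt8b, another Wnt ligand, and 2.92 for Lmx1a, a transcription factor of the hem. These are larger ratios than those of the 8 genes. Choroid plexus genes, from the tissue that borders the hem, had 0.774 with the 8 genes, and meningeal genes 0.373. Over the 13 libraries other than the one labelled Dp(16)1Yey replicate 1 the value was 0.906 for the hem, 0.838 for the choroid plexus, 0.537 for the meninges and 0.439 for the 15 other genes. Interneuron genes had -0.502 over all 14 libraries, septal and striatal genes -0.583, hippocampal neuron genes -0.437 and diencephalic genes -0.204. Over the same 13 libraries these values were -0.498, -0.569, -0.468 and -0.191. Mef2c, a transcription factor of projection neurons, had -0.768 with the mean of the 8 genes, each scaled to its SD. The part of dissection in these relations was not tested.

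**Figure D4:**
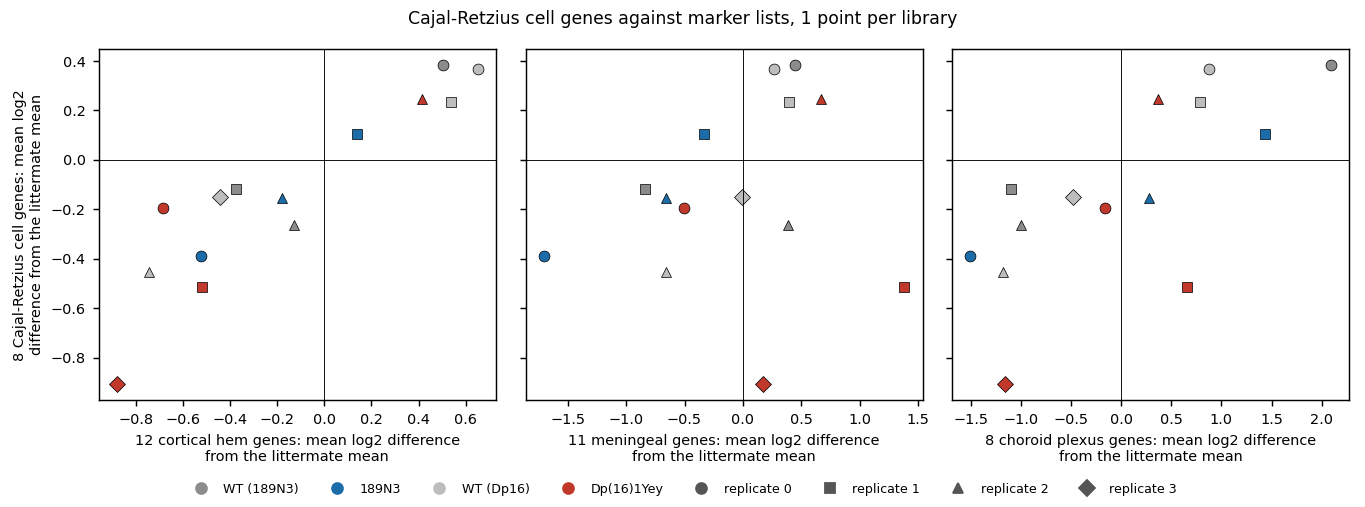
Mean log2 difference of the 8 genes from the mean of their own littermates, plotted against that of 12 cortical hem genes, 11 meningeal genes and 8 choroid plexus genes, with 1 point per library (colour, group; shape, replicate). The points rise along the hem axis from Dp(16)1Yey replicate 3 at -0.88 and -0.91 to littermate replicate 0 at 0.65 and 0.37, while the meningeal axis places the library labelled Dp(16)1Yey replicate 1 at 1.38 with the 8 genes at -0.51.

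Hem genes were also compared between genotypes. Of 12 tested, 9 stood lower in 189N3 and 11 lower in Dp(16)1Yey mice, with medians of -0.11 and -0.44 and none at an unadjusted p under 0.05 in either. Wnt3a had a log2 fold change of -0.71 (SE 0.34) in 189N3 and -0.47 (SE 0.51) in Dp(16)1Yey mice. Bmp6, a bone morphogenetic protein, had -0.55 (SE 0.39) and -0.79 (SE 0.43), and Rspo2, a secreted enhancer of Wnt signalling, had 0.04 (SE 0.24) and -0.55 (SE 0.37). When the library labelled Dp(16)1Yey replicate 1 was left out, all 12 stood lower, with a median of -0.35, against -0.30 for the 8 genes. In 189N3 the hem median depended on single libraries, at 0.13 without littermate replicate 0 and 0.02 without 189N3 replicate 0. The part of the hem in the values of the 8 genes was not tested.

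Of 15 other genes known from Cajal-Retzius cells or their precursors, 12 stood lower in 189N3 than in littermates. The median was -0.07, with none at an unadjusted p under 0.05. Without 189N3 replicate 0 the median was 0.04 with 6 of 15 lower, and without littermate replicate 0 it was 0.01 with 7 lower. Zic1, a zinc finger factor, had -0.33 (SE 0.25), and Tbr1, a T-box factor of glutamatergic neurons, had 0.39 (SE 0.30). In Dp(16)1Yey mice 12 were also lower, with a median of -0.32. Unadjusted, 3 of them were under 0.05 and lower, against 1.82% of all loci in that direction, and none passed the adjusted threshold. They were Barhl2, a homeobox factor, at -1.41 (SE 0.38), Car10, a carbonic anhydrase-related protein, at -1.06 (SE 0.41), and Nr2f2, a nuclear receptor, at -0.88 (SE 0.40). Barhl2 was 15.8, 10.6, 25.5 and 12.1 normalized fragments in the Dp(16)1Yey libraries and 31.9, 23.8, 61.5 and 65.7 in the littermates, with a small overlap. Without the library labelled replicate 1, 11 of 15 stood lower with a median of -0.31, and Barhl2 alone was under 0.05 unadjusted, at -1.25 (SE 0.41). In that setting 297 of all 35999 loci were lower and under 0.05 unadjusted. Unlike 7 of the 8 genes, Barhl2 and Nr2f2 were lower in littermate replicates 0 and 1 than in replicates 2 and 3, with ratios of 0.438 and 0.355. Barhl2 is also a diencephalic gene and Nr2f2 an interneuron gene, and both stand on those lists.

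The genes that receive and transmit the reelin signal were taken from a list of 19, all tested. In 189N3 mice 16 were higher and 3 lower, with a median of 0.19 and none at an unadjusted p under 0.05. This tally rests on 189N3 replicate 2, in which all 19 stood above the littermate mean, while in replicate 1 17 of 19 stood below it. Without replicate 2, 6 were higher and 13 lower, with a median of -0.05. Dab1, the adaptor phosphorylated when reelin binds, was 4977 ± 1287 (SD, n = 3) normalized fragments, and 3913 ± 335 (SD, n = 3) in the littermates. Its log2 fold change was 0.32 (SE 0.24). Cdh2, which encodes N-cadherin, had 0.25 (SE 0.23). The receptors had 0.23 (SE 0.23) for Vldlr and 0.08 (SE 0.23) for Lrp8. In Dp(16)1Yey mice 6 were higher and 13 lower, with a median of -0.05 and again none at an unadjusted p under 0.05. Without the library labelled Dp(16)1Yey replicate 1, 9 were higher and 10 lower, with a median of -0.01. Without replicate 0, in which all 19 stood above the littermate mean, 15 were lower and 6 of them were under 0.05 unadjusted, with a median of -0.21. In that setting 2736 of all 36100 loci were lower and under 0.05 unadjusted. Itga3, an integrin chain that binds reelin, had -0.59 (SE 0.35), and Src, a kinase that phosphorylates Dab1, had -0.47 (SE 0.31). Vldlr had -0.01 (SE 0.16), Lrp8 -0.04 (SE 0.19) and Dab1 0.03 (SE 0.25). Across the 14 centred libraries the mean of this list had a correlation of -0.12 with that of the 8 genes, or -0.15 with that library left out.

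CXCL12 from the meninges holds Cajal-Retzius cells at the surface through its receptor CXCR4. Cxcr4 had log2 fold changes of -0.24 (SE 0.23) in 189N3 and -0.32 (SE 0.26) in Dp(16)1Yey mice. Ackr3, a second receptor of the ligand, had -0.23 (SE 0.28) and 0.40 (SE 0.31), and Cxcl12 itself 0.16 (SE 0.25) and -0.11 (SE 0.23). Without the library labelled Dp(16)1Yey replicate 1, Cxcr4 had -0.22, Ackr3 0.13 and Cxcl12 -0.06. None of the 3 had an unadjusted p under 0.05. Cxcr4 followed Reln across libraries, with a Pearson correlation of 0.940 over the 14 centred libraries, which was 0.938 when the library labelled Dp(16)1Yey replicate 1 was left out. The list as a whole had 0.181 with the 8 genes, and 0.225 without that library.

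Markers of other tissue near the dissection are given beside these values. In 189N3 mice, all 12 meningeal genes tested stood below the littermates, 5 at an unadjusted p under 0.05 (against 1.05% of all loci in that direction), with a median of -1.0. The median was -0.47 without 189N3 replicate 0 and -0.66 without littermate replicate 0. Col1a1 had -1.54 (SE 0.38) and Col1a2 -1.44 (SE 0.36). The summed level of the 14 genes ran from 2272 to 3855 in 189N3 and from 3455 to 8904 in the littermates. In Dp(16)1Yey mice 7 of 11 were higher, 3 at an unadjusted p under 0.05 (against 1.71% of all loci in that direction), among them Igf2 at 0.75 (SE 0.29) and Col1a2 at 1.39 (SE 0.60). The summed level ran from 1887 to 5058 against 1311 to 2405. None of these passed the adjusted threshold. The median was 0.44, against 0.20 with the library labelled replicate 1 left out, where 6 of 11 were higher and 1 was under 0.05 unadjusted in each direction. In that setting 424 of all 35999 loci were higher and 297 lower at an unadjusted p under 0.05. The meningeal median was 0.19 without replicate 2 and -0.04 without littermate replicate 2. The part of the meninges in the values of the 8 genes was not tested.

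Hippocampal neuron markers were higher for 9 of 11 genes in 189N3 mice and for 7 of 11 in Dp(16)1Yey mice. Their medians were 0.26 and 0.10, and the second was 0.01 without the library labelled Dp(16)1Yey replicate 1 and -0.15 without replicate 0. The first was 0.09 without 189N3 replicate 2, with 7 of 11 higher. At an unadjusted p under 0.05 and higher there were 2 in 189N3 mice, against 0.825% of all loci in that direction, among them Mef2c at 0.77 (SE 0.33). There was 1 in Dp(16)1Yey mice, Neurod6 at 0.60 (SE 0.19), against 1.71% of all loci in that direction, and it was 0.45 (SE 0.16) without the library labelled replicate 1. Prox1, of dentate granule cells, had -0.89 (SE 0.42) in Dp(16)1Yey mice, and -0.51 without that library. Choroid plexus genes had medians of 0.04 and -0.23, with Otx2 at -0.55 (SE 0.44) and Kl at 0.36 (SE 0.46) in 189N3, and Htr2c at -1.13 (SE 0.36) and Kcne2 at 2.06 (SE 1.00) in Dp(16)1Yey mice. Htr2c was the 1 of 8 genes under 0.05 unadjusted there, against 1.82% of all loci in that direction, and the median was -0.53 without the library labelled replicate 1 and 0.08 without replicate 3. In 189N3 the choroid plexus median was -0.61 without 189N3 replicate 1 and 0.99 without littermate replicate 0. The summed level of choroid plexus genes ran from 560 to 6699 in 189N3, 706 to 15307 in its littermates, 326 to 2820 in Dp(16)1Yey and 510 to 2280 in its littermates. Interneuron genes had medians of -0.01 and -0.22, with Npy at 0.50 (SE 0.38) and Lhx6 at 0.30 (SE 0.26) in 189N3, and Nr2f2 at -0.88 (SE 0.40) and Dlx6 at 0.36 (SE 0.29) in Dp(16)1Yey mice. Of 12 tested, 7 were lower in 189N3 with none under 0.05 unadjusted. In Dp(16)1Yey mice 8 were lower, with Nr2f2 the 1 under 0.05, against 1.82% of all loci in that direction. Leaving out the library labelled replicate 1, the second median was -0.20, with 9 of 12 lower and none under 0.05. It was 0.06 without Dp(16)1Yey replicate 2, and the first median was 0.23 without 189N3 replicate 0.

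Diencephalic genes had medians of -0.11 and -0.34 over 6 genes tested, with Tcf7l2 at -0.67 (SE 0.25) and Foxp2 at 0.54 (SE 0.38) in 189N3 and Barhl2 at -1.41 (SE 0.38) and Lhx9 at -0.56 (SE 0.40) in Dp(16)1Yey mice. In each line 5 of 6 were lower and 1 was under 0.05 unadjusted, Tcf7l2 and Barhl2, against 1.05% and 1.82% of all loci in that direction. Septal and striatal genes had medians of 0.13 and -0.25, with Drd2 at 1.07 (SE 0.61) and Ppp1r1b at 0.60 (SE 0.44) in 189N3, and Adora2a at -1.02 (SE 0.58) and Penk at -0.89 (SE 0.65) in Dp(16)1Yey mice. The Dp(16)1Yey medians, with the library labelled replicate 1 left out, were -0.37 for diencephalic and -0.54 for septal and striatal genes. Signs turned when other libraries were left out. The septal and striatal median was -0.30 in 189N3 without 189N3 replicate 2, and 0.17 in Dp(16)1Yey mice without Dp(16)1Yey replicate 2. The diencephalic median was 0.19 in 189N3 without 189N3 replicate 0. Drd2, a dopamine receptor, had a mean of 76.5 normalized fragments in replicates 2 and 3 of the Dp(16)1Yey littermates and 3.54 in replicates 0 and 1, the pair in which 7 of the 8 genes were higher. The part of neighbouring tissue in the values of the 8 genes was not tested.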

How the data were processed

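The 14 libraries were made from total hippocampal RNA with a stranded kit and read as paired ends of 100 bases. The authors mapped reads to mm10 with TopHat and Bowtie, assembled and merged transcripts with Cufflinks, and estimated fragments per transcript after correcting for bias and for reads with several matches, so that loci with shared sequence hold estimates. Versions, and whether counting used the strand, are not given in the sources used here. The deposited values are a signal, fragments divided by a factor of each library, and all of them came out as whole multiples of what 1 fragment is worth (100% within 0.1 fragments). The isoform table, also deposited as a normalized signal, served to match names and to give transcript shares. Transcript numbers in the table of names were shifted by up to 11 against those of the values, so each locus was matched to the entry whose isoforms sum to it in all 14 libraries, and 51880 of 59796 loci were matched.

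Values were tested as log2(value + 1) with limma 3.58.1 (eBayes with trend, R 4.3.3) on loci with a mean of at least 10, with Benjamini-Hochberg adjustment at 0.05. Fold changes understate those of low genes on this scale. Single members were tested by exact two-sided permutation of log2 values (SciPy), whose smallest p is 0.10 for 3 against 3, 0.0286 for 4 against 4 and 0.0571 for 4 against 3. The fits were tested on simulated data. Coordinates and exon lengths are from GENCODE on GRCm38, the same build as mm10, and promoters from RefSeq. Alternatives were a pseudocount of 0.1 or 10, no filter, a mean of at least 100, median-ratio scaling, a replicate block, 1 fit of all groups, edgeR 4.0.16 and DESeq2 1.42.0 on whole fragments, each library left out, and, added after seeing the data, nearly alike littermates averaged, lists with each library left out and correlations with 1 library left out.

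The named genes were the 8 members, the 2 genes of each list with the smallest unadjusted p in each transgenic comparison, genes whose role is explained, and the 10 loci most correlated with Reln and with the members' mean. Drd2 and others set beside the littermate pairs were picked after their values were seen. The members and lists were chosen with earlier results of these data known. Rora and Drd1 were not matched to a locus. The values of 1 list gene are not reported here.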

Additional observations from a re-analysis of the deposited data

How the results depend on the processing

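None of the 8 genes was called in 189N3 or Dp(16)1Yey mice, or in the difference of effects, under any alternative run. In Dp(16)1Yey mice unadjusted p was under 0.05 for 1 gene without replicate 0 and for 2 without replicate 2. Over all loci this held for 1831 higher and 2736 lower of 36100 without replicate 0. Without replicate 2 it held for 1010 higher and 1215 lower of 36037. The median of the 8 genes moved in all 72 alternative values by less than 0.385, the SD between libraries of a group, which is larger than the medians themselves. Leaving out each library gave medians of -0.34 to -0.016 in 189N3, -0.53 to -0.18 in Dp(16)1Yey, -0.43 to -0.025 in the difference of effects and -0.063 to 0.28 between wild types, the last with a change of sign. A mean of at least 100 dropped Lhx1 and Lhx5. For single genes 516 alternative values kept direction and call, 43 changed sign and 9 lost the call of Ndnf. The cause of these changes was not tested. The replicate block changed no gene's call. Correlations of same-numbered libraries (0.01, -0.5 and -0.27 in 189N3, and -0.58, -0.03, -0.57 and -0.31 in Dp(16)1Yey) gave no pairing by number. Between libraries of different numbers they ran from -0.3 to 0.57 in 189N3 and from -0.66 to 0.64 in Dp(16)1Yey. The block uses the numbers and does not model likeness of that kind.

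Counts of called loci were 0 in 189N3 mice, but 72 with the replicate block, 4 with median-ratio scaling and 15 with DESeq2. In Dp(16)1Yey mice 0 became 8 with DESeq2. Between wild types 1351 became 614 with no filter, 40 in 1 fit of all groups, 3282 with DESeq2 and 28 with nearly alike littermates averaged. Leaving out each library gave 0 to 28 in 189N3, 0 to 3 in Dp(16)1Yey, 0 to 1 in the difference of effects and 13 to 78 between wild types.

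Signs of single genes turned in several settings. Calb2 in 189N3 was -0.0077 with edgeR, Trp73 in the difference of effects was 0.054 with edgeR and 0.022 with DESeq2, and Reln between wild types was -0.040 with median-ratio scaling and -0.029 with DESeq2. Leaving out each library gave, in 189N3, Reln -0.43 to 0.041, Lhx1 -0.21 to 0.47, Calb2 -0.086 to 0.11 and Ndnf -0.21 to 0.22, and, in Dp(16)1Yey, Nhlh2 -0.39 to 0.067. In the difference of effects it gave Reln -0.41 to 0.062, Trp73 -0.29 to 0.16, Ebf3 -0.052 to 0.35 and Nhlh2 -0.17 to 0.28. Between wild types it gave Reln -0.13 to 0.19, Trp73 -0.050 to 0.40, Nhlh2 -0.11 to 0.26 and Ndnf -0.97 to -0.70. Lhx1, with fewest fragments, is limited most by depth.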
